A study of Mus musculus with 20 samples.

Results

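The response of murine bone marrow-derived dendritic cells (BMDCs) to immune complexes was described across all genes in 10 of the 20 libraries of this series, those of the DMSO Ova and DMSO IC groups. The members were chosen by stimulus and solvent alone: 5 libraries of cells given ovalbumin (Ova) and 5 of cells given ovalbumin immune complexes (IC), 1 of each from mice A to E, all with DMSO and stimulated for 4 hours. The labels give 5% DMSO, a percentage that the methods name only for injected iBET. In the methods, iBET was added to the cultures before the stimulus. Bone marrow cells had been grown for 8 days in GM-CSF at 40 ng/mL. The methods name wild-type C57BL/6 mice, and the labels give neither age nor sex. The IC were formed from endotoxin-free ovalbumin and a polyclonal rabbit antibody to it and were insoluble, whereas the Ova group received ovalbumin without antibody. The antibody, its particulate form and the engagement of its Fc part therefore cannot be told apart in this comparison. The other 10 libraries held the same stimuli with iBET (I-BET151, an inhibitor of the BET readers of acetylated histones) at 3.3 μM and entered the fit and 1 comparison here.

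Fcγ receptors bind the constant part of IgG, and their clustering by an immune complex starts signalling. In the mouse, FcγRI, FcγRIII and FcγRIV activate cells through a shared chain, encoded by Fcer1g, and the kinase Syk, while FcγRIIb inhibits through phosphatases such as SHIP-1. Downstream are phospholipase C, the CARD9 adaptor complex, NF-kB, MAP kinases, reactive oxygen production, uptake of the complex into a phagosome and its delivery to acidified lysosomes. In dendritic cells this pathway is known for cytokine release, antigen presentation and maturation.

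Total counts were 16447491 to 26940397 per library in the DMSO Ova group and 19581528 to 25423871 in the DMSO IC group. Of 24421 genes listed, 12465 were kept by edgeR's filter and tested, and 6187 had no count in any library. Values are CPM, counts divided by the library's total and scaled to a common total by TMM, a method that lines up libraries on the bulk of their genes. The main test was edgeR's quasi-likelihood test on all 20 libraries with the mouse as a block, with Benjamini-Hochberg adjustment over all genes tested. A gene is called, or described as rising or falling, where its adjusted p was under 0.05. The labelled cell type was checked against markers. The summed CPM of 10 dendritic cell markers was 5574 to 9570 with Ova and 6294 to 10540 with IC, and that of 10 macrophage markers 1562 to 2241 and 1548 to 2106. Marker sums are by library total, without TMM. The first rested on few genes, with means with Ova of 2822 for Cd74, 2071 for Itgax and 1207 for Ccl22. Zbtb46 (26.1), Dpp4 (18.2), Flt3 (3.23) and Cd209a (0.30) were low in it. The macrophage markers Csf1r and Cd68 had means of 1088 and 229 with Ova. Markers of B cells, of T and NK cells and of fibroblasts summed to at most 1.07 CPM in any of the 10 libraries, and those of neutrophils to 18.0 to 61.2 with Ova and 13.1 to 41.6 with IC. Erythroid markers summed to at most 14.2 CPM, mast cell and basophil markers to 18.4 to 53.5 CPM and plasmacytoid dendritic cell markers to 70.4 to 83.1 CPM, and Gzma, Col3a1, Siglech and Alas2 had no count in any of these libraries. Of 9 dendritic cell markers tested 5 were higher and 1 lower with IC, of 9 macrophage markers 2 and 2, and of 7 neutrophil markers 0 and 2, and the part of such shifts in the results was not tested. In bulk RNA, fewer cells of a type and less RNA per cell cannot be told apart. Mice A and B stood apart from mice C, D and E in some genes under either stimulus. The maturation genes Ccr7, described below, and Cd83 were lower in mice A and B, and Cd14 and Atp6v1a were higher. The maturation gene Cd274 was not split in this way with Ova. The labels name no batch.

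Immune complexes moved many genes, most of them by little. With IC, 4755 of the 12465 genes tested were called (38.1%), of which 2284 rose (18.3% of those tested) and 2471 fell (19.8%). The median absolute log2 fold change of the called genes was 0.32, and 3581 of them moved by less than 0.5 on the log2 scale. A log2 fold change of at least 1 was reached by 111 rising genes (0.89%) and 103 falling genes (0.826%). The called genes moved in the same direction in 5 of 5 mice for 1911 of those that rose and 1958 of those that fell. For 1543 genes (12.4%) the 5 values with Ova and the 5 with IC did not overlap. The test without the mouse as a block called 2531 genes (1196 higher and 1335 lower), each of them among the 4755. The split depended on the scaling: with library size in place of TMM, 1109 genes rose and 4110 fell, and the median over all genes moved from -0.02 to -0.13. A few abundant genes, the ferritin genes Ftl1 and Fth1 among them, took a larger share of the counts with IC. So did the ribosomal RNA precursor Rn45s, at 5.04% with Ova and 5.25% with IC on average. It took 2.69% to 7.83% of single libraries with Ova and 3.51% to 6.85% with IC. The part of these genes in the difference between the scalings was not tested. Directions below are by TMM, that is relative to the bulk of genes. Counts by library size given below for gene lists are to be read against those 1109 rises and 4110 falls. The median of a list less that of all genes moved little between the scalings, as from 0.258 to 0.256 for the maturation genes. Mice A and B alone gave 1265 called genes and mice C, D and E alone 4494.

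**Figure D1:**
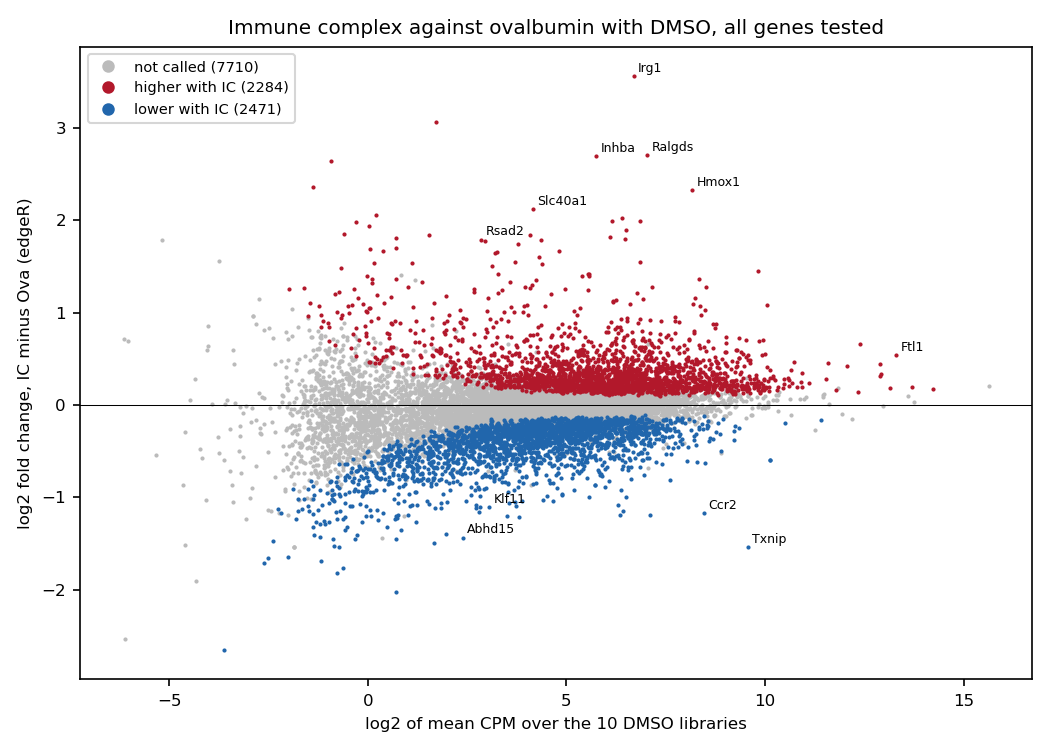
Each point is 1 of the 12465 genes tested. The x axis gives the log2 of its mean CPM over the 10 DMSO libraries and the y axis the log2 fold change of IC against Ova from edgeR, with 2284 called genes above 0 in red, 2471 below 0 in blue and the others in grey, and some of the genes with the largest changes labelled.

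Among genes with a mean of at least 100 counts that moved the same way in every mouse, the gene that rose most was Irg1 (now Acod1), whose enzyme makes itaconate in mitochondria. Irg1, on chromosome 14 from 103046977 to 103056573 (GRCm38), had 29.6, 11.3, 15, 14.4 and 11.2 CPM in mice A to E with Ova and 226, 193, 241, 146 and 141 CPM with IC. All 5 values with IC lay above all 5 with Ova (log2 fold change 3.57, standard error 0.181, edgeR adjusted p = 1.65e-10). Ralgds, an exchange factor that activates Ral GTPases downstream of Ras, lies on chromosome 2 from 28513125 to 28553081 and had 49, 23.1, 38.8, 28.5 and 35.7 CPM with Ova against 245, 201, 267, 174 and 247 CPM with IC (log2 fold change 2.70, edgeR adjusted p = 2.34e-12). Its relative Rgl1, with the same activity, had 36, 23.2, 33.4, 22.8 and 35 CPM with Ova and 116, 93.7, 123, 85.4 and 110.4 CPM with IC (log2 fold change 1.82, edgeR adjusted p = 2.34e-12). Neither gene overlapped between the groups, and they had the 2 smallest p values among rising genes, followed by the sialyltransferase gene St6galnac4 (1.24), the hepatocyte growth factor receptor Met (1.99) and the ribosomal S6 kinase gene Rps6ka2 (1.80). Inhba, which encodes the subunit of activin A, is on chromosome 13 from 16011851 to 16031621. It had 25.6, 11.2, 13.7, 6.79 and 14.1 CPM with Ova and 108, 133, 94.9, 47.6 and 82.4 CPM with IC, again without overlap (log2 fold change 2.69, edgeR adjusted p = 1.5e-09). Met had 50.2, 33.7, 50.2, 48.8 and 49.2 CPM with Ova and 222, 156, 195, 173 and 174 CPM with IC, a change that differed little between mice. The other large rises were those of the heme oxygenase Hmox1 (2.33), the iron exporter Slc40a1 (2.13), the chemokine Cxcl3 (2.03), the clock repressor Bhlhe41 (1.99), the lectin Clec4e, known as Mincle (1.89), the poly(A) polymerase Fam46c (1.84), the antiviral gene Rsad2 (1.79), Tnf (1.79) and the reelin receptor Lrp8 (1.74). An antisense gene overlaps 19% of the exonic bases of Bhlhe41, so its value is uncertain.

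The falls were smaller. Txnip, which encodes a thioredoxin-binding arrestin that limits glucose uptake, fell most among genes chosen by the same rule. It lies on chromosome 3 from 96557957 to 96561883 and had 1152, 1233, 1014, 1051 and 1184 CPM with Ova against 393, 468, 346, 359 and 383 CPM with IC (log2 fold change -1.54, standard error 0.0619, edgeR adjusted p = 5.5e-12). The groups were far apart, at 1014 CPM or more with Ova and at most 468 with IC. An antisense gene overlaps 19.4% of the exonic bases of Txnip, and the strand setting of the counting is not given. Sf3b3, a subunit of the U2 spliceosomal particle on chromosome 8 from 110810239 to 110846787, had the smallest p among falling genes. Its CPM was 126, 119, 125, 112 and 114 with Ova and 55, 54.1, 54.7, 50.5 and 53.6 with IC (log2 fold change -1.15, edgeR adjusted p = 4.75e-12), so within each group the mice differed by far less than the groups did. Ccr2, the receptor for the monocyte chemoattractant Ccl2, lies on chromosome 9 from 124101950 to 124113557 and had 306, 439, 442, 721 and 529 CPM with Ova against 145, 161, 226, 364 and 202 CPM with IC. It was lower with IC in 5 of 5 mice, although the value of mouse D with IC exceeded that of mouse A with Ova (log2 fold change -1.17, standard error 0.148, edgeR adjusted p = 9.34e-06). The other large falls included the tyrosine phosphatase Ptpn22 (-1.22), the lysosomal cholesterol sensor Gpr155 (-1.20), the cofilin phosphatase Ssh2 (-1.19), the gasdermin gene Dfna5, now Gsdme (-1.11), the repressors Klf11 (-1.11) and Klf10 (-1.08), and Abhd15 (-1.43), Gm1966 (-1.18), Zcchc24 (-1.16), Srgap3 (-1.10), Nhsl2 (-1.09) and Kank3 (-1.08). Abhd15 shares 29.1% of its exonic bases with an antisense gene, and Gm1966 is an unprocessed pseudogene of a multigene family, so the values of both are uncertain. After Sf3b3 and Txnip, the smallest p values among falling genes were those of the stress kinase Map3k5 (-0.98), the microRNA host gene Mir22hg (-1.06) and the calcium-dependent kinase Camkk2 (-0.88). Mir22hg shares 10.7% of its exonic bases with Tlcd2, on the same strand.

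**Figure D2:**
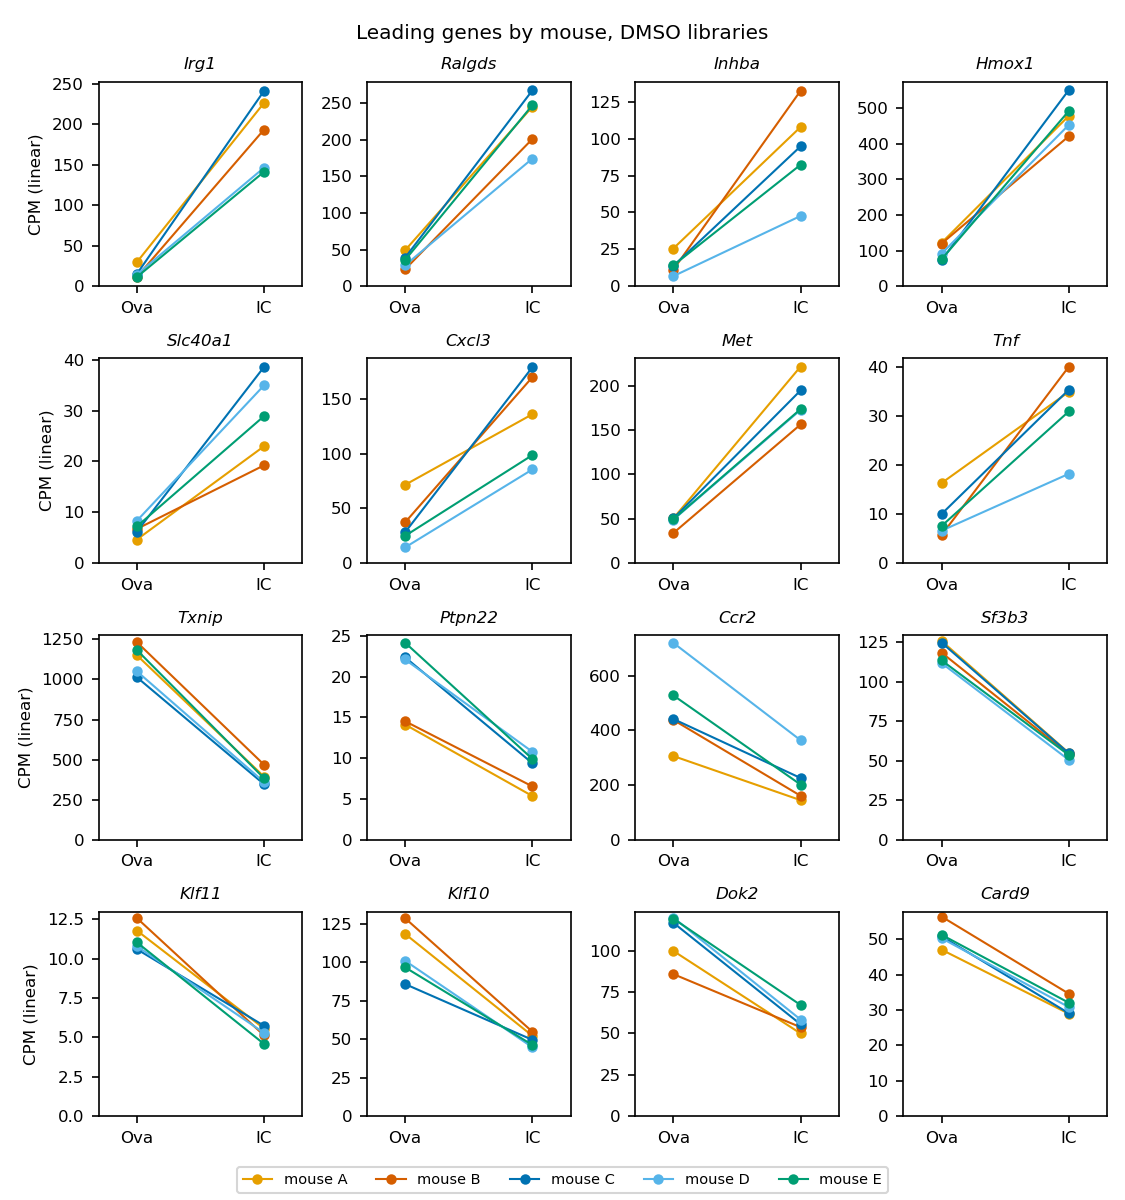
TMM-scaled CPM (y axis, linear, from 0) of 16 genes with Ova and with IC (x axis), with DMSO. Each line joins the 2 libraries of 1 mouse. In each panel every line runs the same way, upward in the first 8 genes and downward in the last 8, and only in Ccr2 do the groups overlap.

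No Fcγ receptor gene rose, and the module around the receptors moved in both directions. Of 38 genes tested, 10 rose and 12 fell, or 8 and 16 with library size in place of TMM (median log2 fold change -0.07, against -0.02 over all genes tested). Fcgr1, the high-affinity activating receptor, had 74.2, 69.4, 64, 55.4 and 50.6 CPM with Ova and 52.1, 59.8, 47.1, 38.9 and 34.6 CPM with IC and fell in 5 of 5 mice, with overlap between the groups (log2 fold change -0.44, standard error 0.0637, edgeR adjusted p = 3.33e-05). Fcgr2b, the inhibitory receptor, had 367, 324, 272, 305 and 306 CPM with Ova and 371, 343, 266, 246 and 261 CPM with IC, overlapping values whose difference did not pass (log2 fold change -0.10, edgeR adjusted p = 0.313). Fcgr3 had 661, 645, 372, 414 and 452 CPM with Ova and 629, 599, 443, 444 and 436 CPM with IC, overlapping as well (log2 fold change 0.02, standard error 0.068, edgeR adjusted p = 0.853). Fcgr2b and Fcgr3 are similar in sequence, and how reads that fit both were counted is not given. Fcgr4 stood at a mean of 22.2 counts per DMSO library and did not pass (-0.50, edgeR adjusted p = 0.124), and Fcgrt, which encodes the neonatal receptor FcRn, fell (-0.39, edgeR adjusted p = 0.0139) but was not called without mouse B (-0.26, edgeR adjusted p = 0.0542) or without mouse D (-0.36, edgeR adjusted p = 0.0696).

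Below the receptors, Fcer1g and Syk rose while several brakes fell. Of the 8 genes of the signalling chain and kinases 2 rose and 2 fell. Syk had 377, 410.5, 407, 443 and 412 CPM with Ova and 533, 510.0, 494, 520.1 and 549 CPM with IC, with no overlap (log2 fold change 0.35, edgeR adjusted p = 9.26e-06). Fcer1g rose too (0.24, edgeR adjusted p = 0.000833), whereas the Src-family kinase Fgr (-0.34) and the Tec-family kinase Btk (-0.35) fell. Of 18 adaptors and effectors 8 rose, led by the PI3K regulatory subunit Pik3r5 (0.63) and the paracaspase Malt1 (0.59), and 3 fell, against 6 and 6 by library size. The one that fell most was Card9, the scaffold that links Syk to NF-kB through Bcl10 and Malt1, with 47, 56.3, 50.8, 50.2 and 51.2 CPM with Ova and 28.9, 34.6, 29.1, 30.8 and 32 CPM with IC, without overlap (log2 fold change -0.72, edgeR adjusted p = 1.59e-08). Of 7 inhibitors 5 fell and none rose, and without the mouse as a block 3 fell and none rose. Those 5 were the phosphatase Ptpn6, known as SHP-1 (-0.32), Pag1 (-0.19), Inppl1 (-0.17), and Dok2 and Dok3, adaptors that recruit SHIP-1. Pag1 was not called without mouse B, C, D or E, at -0.18, -0.15, -0.16 and -0.18. Inppl1 was not called without mouse B, C or D, at -0.12, -0.13 and -0.18. Dok2 had 99.8, 85.8, 117, 119.9 and 119 CPM with Ova and 50, 53.8, 55.5, 58.4 and 67.2 CPM with IC (log2 fold change -0.92, standard error 0.057, edgeR adjusted p = 1.7e-09), so that each value with IC was below each with Ova. Dok3 moved by -0.51 (edgeR adjusted p = 0.000134). Inpp5d, which encodes SHIP-1, did not pass (0.08, edgeR adjusted p = 0.14).

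Genes of the NF-kB system were called higher more often than all genes. Of 22 tested, 12 rose and 2 fell (median log2 fold change 0.26). With library size in place of TMM 7 rose and 2 fell, and without the mouse as a block 7 rose and 1 fell. The 6 inhibitors included 4 that rose: Nfkbie (0.80), Nfkbia (0.57), Nfkbib (0.39) and Bcl3 (0.32). Of the 5 subunits, Nfkb2 (0.26) and Nfkb1 (0.18) rose, and Rela, Relb and Rel did not pass. None of the 5 was called by library size or without the mouse as a block. Nfkb2 was not called without mouse A, B or E, and Nfkb1 not without mouse B (0.12). Among the kinases and regulators Tbk1 (0.47), Traf3 (0.42) and Tank (0.40) rose most, while Ikbke (-0.30) and Ikbkb (-0.23) fell. Of the feedback inhibitors of signalling, 10 of 33 rose and 7 fell, and with library size in place of TMM 6 rose and 11 fell. The ubiquitin editor Tnfaip3, known as A20, had 37.7, 28.8, 66.2, 64.2 and 50 CPM with Ova and 71.7, 76.6, 95.2, 81.7 and 88.3 CPM with IC, without overlap (log2 fold change 0.79, edgeR adjusted p = 2.32e-05), and its partner Tnip1 rose by 0.67. The MAP kinase phosphatases Dusp2 (1.26) and Dusp4 (0.82) rose, and Dusp6 (-0.38) fell. The call of Dusp2 was lost without mouse B, C or D, with log2 fold changes of 1.21, 1.13 and 1.11, and that of Dusp6 without mouse A, C, D or E, with -0.22, -0.43, -0.41 and -0.34. The RNase gene Zc3h12c rose (0.64) and its relative Zc3h12d fell (-0.75).

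Of 29 early response factors, 9 rose and 3 fell at 4 hours, and with library size in place of TMM 5 rose and 5 fell. The members that rose most were the small MAF factor Maff (1.22, edgeR adjusted p = 3.09e-06), the stress factor Atf3 (0.69, edgeR adjusted p = 7.05e-06), Jun (0.54), Mafg (0.48) and Mafk (0.44). The 3 that fell were Myc (-0.51), Fosl2 (-0.27) and Fos (-0.25). Of the 8 EGR, NR4A and NAB genes tested only Nr4a3 passed (0.44, edgeR adjusted p = 0.0273), and not without mouse A (0.35) or mouse B (0.33). From the list of lineage factors, the C/EBP factor Cebpb, which sits at inflammatory enhancers of myeloid cells, rose by 1.07 (edgeR adjusted p = 1.65e-05).

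Several cytokine genes of the TNF and IL-1 families rose. Of 9 tested, 5 rose and none fell, with a median log2 fold change of 0.90, and Lta (0.23), Il33 (0.02), Ltb (-0.22) and Il18 (-0.48) did not pass. Tnf, on chromosome 17 from 35199381 to 35202007, had 16.3, 5.69, 9.98, 6.58 and 7.54 CPM with Ova and 34.9, 40.1, 35.4, 18.2 and 30.9 CPM with IC, without overlap (log2 fold change 1.79, standard error 0.178, edgeR adjusted p = 5.46e-07). Il1b, on chromosome 2 from 129364570 to 129371139, had 13.6, 6.46, 5.65, 11.9 and 12.4 CPM with Ova and 18.5, 27.7, 21.1, 16.9 and 52.9 CPM with IC (log2 fold change 1.35, standard error 0.223, edgeR adjusted p = 0.000128). All 5 Il1b values with IC exceeded those with Ova, and mouse E stood highest. Il1a (1.40), the IL-36γ gene Il1f9 (1.60) and the receptor antagonist gene Il1rn (0.90) also rose. In contrast, Il6, on chromosome 5 from 30013114 to 30019981, moved little. It had 5.4, 5.99, 4.66, 3.19 and 5.9 CPM with Ova and 5.83, 9.71, 6.25, 4.25 and 5.97 CPM with IC, with overlap, although it was higher in 5 of 5 mice and passed (log2 fold change 0.33, standard error 0.107, edgeR adjusted p = 0.0198). Il6 was not called without mouse B, C or D, with log2 fold changes of 0.24, 0.32 and 0.32. Il12b, the p40 subunit shared by IL-12 and IL-23, rose by 0.92 (edgeR adjusted p = 1.18e-05), and with Il6 it made up the 2 of 6 genes of the IL-6, IL-10 and IL-12 families that were called. Of 10 TNF superfamily ligands 4 rose, led by Tnfsf12 (0.48), and 3 fell: Tnfsf13b, which encodes the B cell survival factor BAFF (-0.76, edgeR adjusted p = 0.000959), Tnfsf14 (-0.60) and Tnfsf8 (-0.56). By library size in place of TMM 1 of the 10 rose and 3 fell. Among 11 colony-stimulating and growth factors 8 rose, Inhba and the stress cytokine Gdf15 (1.55) among them, and Pdgfb fell (-0.50). Of 5 other cytokine genes Il7 (-0.82, edgeR adjusted p = 0.0116) and Il16 (-0.32) fell and Mif rose (0.58), and Il7 was not called without mouse C (-0.69).

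Chemokine ligands rose as a group, and no tested ligand fell. Of 20 tested, 16 rose (80%), with a median log2 fold change of 0.62. By library size 13 rose, and without the mouse as a block 9 rose, with none lower in either. The neutrophil attractants of the CXC class, which act on CXCR2, were Cxcl3, Cxcl1 (1.36), Cxcl2 (1.26) and Ppbp (1.25). Cxcl3, on chromosome 5 from 90786103 to 90789600, had 71.5, 37.1, 28, 14.2 and 24.8 CPM with Ova and 136, 170.1, 179, 85.6 and 98.7 CPM with IC, so the smallest value with IC was above the largest with Ova (log2 fold change 2.03, standard error 0.214, edgeR adjusted p = 1.12e-06). Cxcl10, the interferon-inducible ligand of CXCR3, was low, at 0.717, 0.296, 0.753, 1.12 and 0.872 CPM with Ova and 1.7, 2.86, 3.87, 1.83 and 2.31 CPM with IC, without overlap (log2 fold change 1.71, edgeR adjusted p = 0.00025). The CC ligands Ccl4 (1.65), Ccl3 (1.40), Ccl2 (1.41) and Ccl7 (1.05) rose, Ccl7 with a call that was lost without any one of mice B, C, D and E (log2 fold change 0.73 without mouse C), as did Ccl17 (0.73) and Ccl22 (0.27), ligands of CCR4 made by mature dendritic cells. Ccl24, Ccl5, Cxcl14 and Cx3cl1 did not pass.

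**Figure D3:**
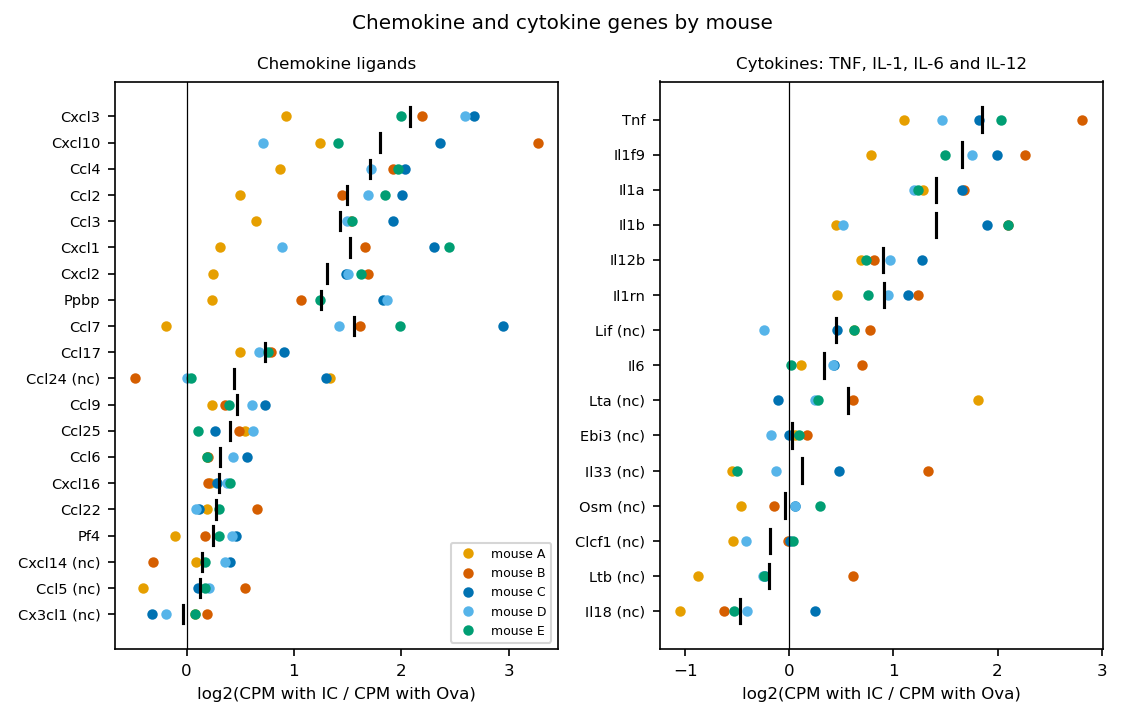
Log2 ratio of CPM with IC to CPM with Ova (x axis) in each mouse for 20 chemokine genes (left) and 15 cytokine genes (right). Coloured points are mice, black bars the mean over 5 mice, and (nc) marks genes that were not called. Of the 20 chemokine genes, 14 lay above 0 in every mouse, and mouse A had the lowest ratio for Cxcl3, Ccl4, Ccl2, Ccl3, Cxcl1, Cxcl2, Ppbp and Ccl7.

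Promoters of the CXC ligands were read because Cxcl1, Cxcl2 and Cxcl3 lie in the same gene cluster and all rose. In RefSeq promoters of GRCm38.p6 (250 bases before to 50 after each start), the kB motif bound by NF-kB, here GGG and TTTCC separated by any 2 bases, was searched on both strands. It stood in 4 of the 14 tested chemokine ligands with a promoter in the table (28.6%) and in 1.89% of all 27025 promoters. Those 4, Cxcl1, Cxcl2, Cxcl3 and Ccl9, were among the 12 of these 14 that rose. The stretches before the start are printed with each match in capitals, read along the strand of the gene.
Cxcl1, chr5:90891139-90891218, plus strand: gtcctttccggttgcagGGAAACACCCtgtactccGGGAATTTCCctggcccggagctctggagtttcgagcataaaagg
Cxcl2, chr5:90903786-90903865, plus strand: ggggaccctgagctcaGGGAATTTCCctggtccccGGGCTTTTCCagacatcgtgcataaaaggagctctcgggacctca
Cxcl3, chr5:90785993-90786072, plus strand: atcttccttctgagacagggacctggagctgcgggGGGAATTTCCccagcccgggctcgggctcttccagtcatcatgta
The Cxcl1 and Cxcl2 stretches each held 2 matches and that of Cxcl3 1, with the match in the middle of each stretch beginning 71, 78 and 73 bases before the start. A match describes the letters and no binding was measured.

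Receptors for chemoattractants were split. Of 8 chemokine receptor genes tested, 4 rose and 2 fell, Ccr2 among the latter, and with library size in place of TMM 1 rose and 2 fell. The rise of Ccrl2, a scavenging receptor for chemerin, was 0.69 (edgeR adjusted p = 0.00572). Ccr7, which guides mature dendritic cells to lymph nodes, had 228, 209, 681, 592 and 596 CPM with Ova and 237, 285, 747, 705 and 757 CPM with IC in mice A to E. Mice A and B had at most 285 CPM under either stimulus and mice C, D and E at least 592 CPM, a gap far wider than the difference between the stimuli (log2 fold change 0.25, standard error 0.0907, edgeR adjusted p = 0.0371, higher in 5 of 5 mice). Without mouse B, C, D or E Ccr7 was not called, with log2 fold changes of 0.20, 0.28, 0.25 and 0.23, and it was not called without the mouse as a block. Of 14 other chemoattractant receptors 4 rose, such as the receptor for platelet-activating factor, Ptafr (0.51), and 6 fell, such as the complement C5a receptors C5ar2 (-0.92, edgeR adjusted p = 1.24e-06) and C5ar1 (-0.35), the leukotriene B4 receptor Ltb4r1 (-0.62) and S1pr4 (-0.77), and by library size 4 rose and 9 fell. C5ar1 was not called without mouse A, B or D, at -0.25 without mouse B. Of the interleukin and interferon receptor chains, 8 of 21 fell, with Il6ra (-0.79), Il1r1 (-0.62) and Il17ra (-0.54) lowest, and 5 rose, led by the decoy receptor Il1r2 (0.47). Of 18 growth factor and TNF receptors 4 rose, with Tnfrsf26 (0.85) and Tnfrsf1b (0.60) highest, and 1 fell, against 3 and 4 by library size. Of 22 Toll-like receptors and adaptors 8 rose and 6 fell, and 4 and 8 by library size. Among them Tlr2 (0.54), Tlr6 (0.51) and Tlr13 (0.37) rose, while Tlr8 (-0.67) and Tlr4 (-0.26) fell, as did the adaptor Myd88 (-0.32). Tlr4 was not called without mouse A, C or E, at -0.16 without mouse E (edgeR adjusted p = 0.14). Of 17 C-type lectin receptors tested 6 rose, with Clec4e and its neighbour Clec4d (0.84) highest, and 5 fell (4 and 5 by library size), 4 of them from the Clec4a and Clec4b genes, which resemble each other in sequence.

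Antioxidant genes rose together. NRF2, encoded by Nfe2l2, is released from KEAP1 by electrophiles and oxidants and switches on glutathione, thioredoxin, NADPH and iron-handling genes. Of 21 genes of its list, 18 rose (85.7%) and none fell (median log2 fold change 0.55). Hmox1, which degrades heme, lies on chromosome 8 from 75093621 to 75100589 and had 122, 119, 73, 91.2 and 75.5 CPM with Ova against 478, 421, 550.2, 452 and 491 CPM with IC (log2 fold change 2.33, standard error 0.136, edgeR adjusted p = 9.78e-10). The cystine importer Slc7a11 had 694, 446, 431, 376 and 466 CPM with Ova and 1541, 1487, 1331, 1199 and 992 CPM with IC (log2 fold change 1.45, edgeR adjusted p = 3.39e-07). Txnrd1, the cytosolic thioredoxin reductase, had 221, 159.8, 178, 159.8 and 179.8 CPM with Ova and 523, 432, 494, 420.4 and 447 CPM with IC (log2 fold change 1.37, standard error 0.0594, edgeR adjusted p = 1.29e-11). None of these 3 genes overlapped between the groups. The sulfiredoxin Srxn1 (1.28), the glutathione synthesis subunits Gclm (1.10) and Gclc (0.38), the peroxiredoxin Prdx1 (1.09), Nfe2l2 itself (0.63), the glutathione reductase Gsr (0.57) and the autophagy receptor Sqstm1 (0.55) followed, and Nqo1 rose less (0.43). Of the pentose phosphate enzymes Pgd, Taldo1 and Tkt rose by 0.34, 0.25 and 0.16, and G6pdx (0.10), Keap1 (0.10) and Osgin1 (0.41) did not pass.

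Iron storage and export rose with them. Slc40a1, the only known iron exporter of mammalian cells, on chromosome 1 from 45908068 to 45926523, had 4.61, 6.7, 6.17, 8.3 and 7.18 CPM with Ova and 23, 19.2, 38.6, 35 and 28.9 CPM with IC (log2 fold change 2.13, standard error 0.13, edgeR adjusted p = 1.53e-09). It did not overlap between the groups, and the rise was smallest in mouse B. The ferritin light and heavy chain genes Ftl1 (0.55, edgeR adjusted p = 1.75e-05) and Fth1 (0.66, edgeR adjusted p = 1.02e-05) rose in 5 of 5 mice, with the groups overlapping. They took on average 0.87% and 0.441% of all counts with Ova and 1.16% and 0.634% with IC. Both have processed pseudogenes that could take part of their reads.

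The antioxidant response element, here by its core TGACNNNGC on either strand, stood in 7 of 18 promoters of the list (38.9%) against 14% of all 27025 promoters. Its letters can overlap those of the AP-1 motif TGANTCA, as in the match of Prdx1. The stretches with a match, in capitals, are shown for 3 of the 6 rising genes that hold one.
Txnrd1, chr10:82859079-82859157, plus strand: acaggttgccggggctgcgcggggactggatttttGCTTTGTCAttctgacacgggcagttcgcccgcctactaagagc
Gclm, chr3:122245388-122245466, plus strand: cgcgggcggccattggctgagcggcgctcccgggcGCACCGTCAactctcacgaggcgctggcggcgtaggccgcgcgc
Prdx1, chr4:116685431-116685509, plus strand: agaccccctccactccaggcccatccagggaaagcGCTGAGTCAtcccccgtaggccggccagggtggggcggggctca
All 3 matches were on the strand opposite to the gene and began 92, 134 and 133 bases before the start. The start used for Txnrd1 is 1 of several in the table and lies downstream of the start of the annotated gene.

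**Figure D4:**
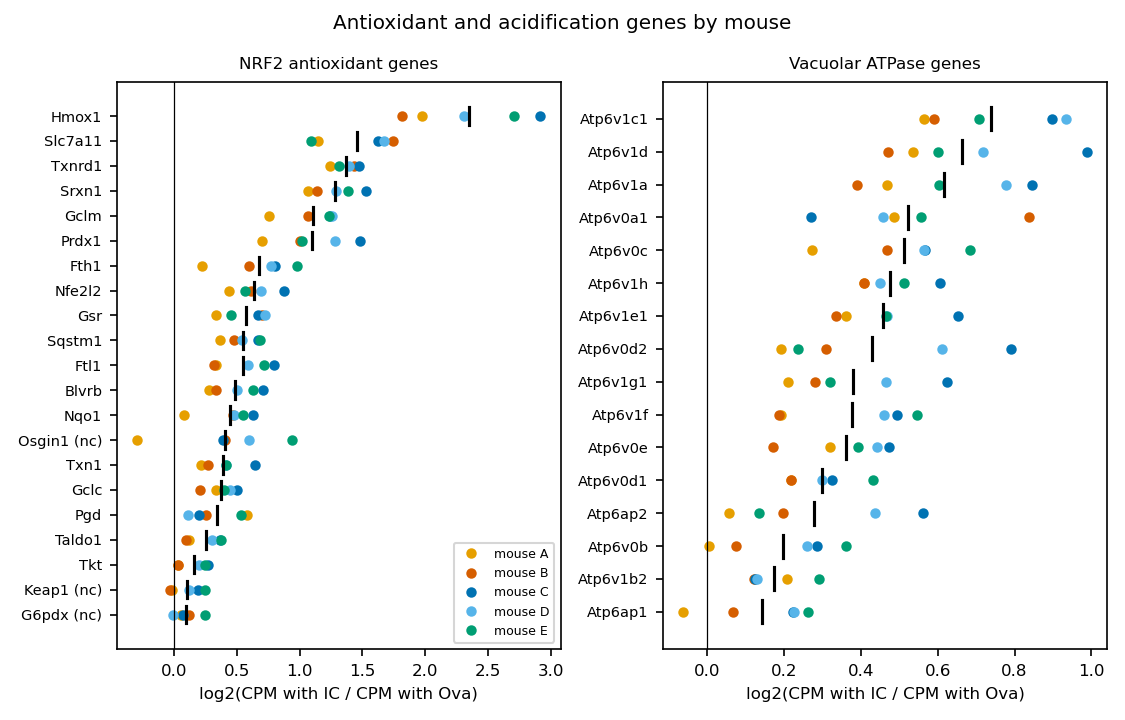
Log2 ratio of CPM with IC to CPM with Ova (x axis) in each mouse for the 21 tested NRF2 genes (left) and 16 genes of the vacuolar ATPase (right). Coloured points are mice, black bars the mean over 5 mice, and (nc) marks genes that were not called. In the left panel 18 genes and in the right panel 15 lay above 0 in every mouse.

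Lysosomal genes rose broadly and by small amounts. The vacuolar ATPase pumps protons into phagosomes and lysosomes, and all 16 genes tested of its subunits and accessory proteins rose, with a median log2 fold change of 0.40. Atp6v1c1, a subunit of the soluble V1 part, had 177, 163, 114, 108 and 128 CPM with Ova and 262, 245, 213, 206 and 209 CPM with IC (log2 fold change 0.73, standard error 0.0638, edgeR adjusted p = 1.11e-07), without overlap. Atp6v1d (0.66), the catalytic Atp6v1a (0.61) and the membrane subunit Atp6v0a1 (0.52) came next, and Atp6ap1 moved least (0.14, edgeR adjusted p = 0.0438, not called without mouse B, C, D or E). Of 31 hydrolases and membrane proteins 19 rose and 1, the dipeptidase gene Ctsc, fell (-0.22). By library size 13 of these 31 and 13 of the 16 vacuolar ATPase genes rose. Without the mouse as a block 5 and 12 rose. The acid lipase Lipa, which frees cholesterol from its esters, had 919, 819.9, 524, 628 and 623 CPM with Ova and 1389, 1116, 999, 1090.1 and 1012 CPM with IC, without overlap (log2 fold change 0.69, edgeR adjusted p = 1.16e-07). The galactosidase Gla (0.70), the proteases Ctsb (0.45) and Ctsd (0.44) and the cholesterol transporter Npc1 (0.41) rose. So did Tfeb, which encodes a master regulator of lysosomal genes (0.50, edgeR adjusted p = 3.5e-05), whereas its relative Tfe3 did not pass (-0.00). The size differed between the sets of mice: the median over the 47 lysosomal genes was 0.15 in mice A and B and 0.36 in mice C, D and E, with 10 and 38 genes higher, against 643 and 2360 among all genes, and the difference between the sets was not tested.

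The CLEAR motif TCACGTGA, bound by TFEB and its relatives and read alike on both strands, was in 7 of 35 promoters of the lysosomal list (20%) against 1.12% of all promoters. The 7 genes, Atp6v0d1, Atp6v0e, Atp6v1a, Ctsa, Ctsd, Gla and Mcoln1, were among the 26 of the 35 that rose. The stretches of 3 of them follow, with the matches in capitals.
Gla, chrX:134601158-134601235, minus strand: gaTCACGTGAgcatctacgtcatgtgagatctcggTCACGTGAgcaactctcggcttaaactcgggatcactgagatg
Atp6v1a, chr16:44139349-44139426, minus strand: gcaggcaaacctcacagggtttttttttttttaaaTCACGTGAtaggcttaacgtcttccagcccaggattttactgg
Ctsd, chr7:142387884-142387961, minus strand: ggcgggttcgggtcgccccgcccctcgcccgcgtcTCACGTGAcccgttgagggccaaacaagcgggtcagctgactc
The stretch of Gla held 2 matches. The motif contains the E-box CACGTG, which other factors bind too.

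Enzymes of itaconate and arginine metabolism rose without exception, at 7 of 7 tested (median log2 fold change 0.55). After Irg1 came the inducible nitric oxide synthase Nos2, from 0.642, 1.3, 0.706, 0.63 and 0.41 CPM with Ova to 3.13, 1.77, 2.43, 2.37 and 2.84 CPM with IC (log2 fold change 1.80, standard error 0.291, edgeR adjusted p = 0.000104). Nos2 was low throughout but did not overlap. Arg2 (0.95), the arginine transporter Slc7a2 (0.55), Ass1 (0.48), Odc1 (0.44) and Arg1 (0.35) rose less, Arg1 not being called without mouse A, C or D (0.23 without mouse C). Of 16 eicosanoid genes 8 rose and 3 fell, or 4 and 3 by library size. Ptgs2, the inducible cyclooxygenase, had 3.62, 2.37, 1.7, 2.49 and 2.62 CPM with Ova and 3.82, 10.2, 4.53, 1.67 and 44.8 CPM with IC. It was higher in 4 of 5 mice and highest by far in mouse E (log2 fold change 1.78, standard error 0.507, edgeR adjusted p = 0.00995). Without mouse E the log2 fold change was 0.82 and Ptgs2 was not called (edgeR adjusted p = 0.108). The constitutive Ptgs1 (-0.34), the thromboxane synthase Tbxas1 (-0.33) and Alox5 (-0.23) fell, while the prostaglandin synthases Hpgds (0.92) and Ptges (0.60) and the prostacyclin receptor Ptgir (0.76) rose.

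Of 24 genes of glucose uptake and glycolysis 14 rose and 2 fell (median 0.24). Pgam1 (0.67), hexokinase Hk2 (0.59), the glucose transporter Slc2a1 (0.57) and the lactate transporters Slc16a1 (0.51) and Slc16a3 (0.44) led. The phosphofructokinase Pfkm (-0.68) and the regulatory enzyme Pfkfb4 (-0.38) fell. Of 16 genes of the hypoxia factor HIF-1 and its targets 9 rose, among them P4ha2 (1.26), Egln3 (1.00) and Bnip3 (0.56), with Hif1a at 0.49. Folding factors of the endoplasmic reticulum rose in 14 of 22 genes. Creld2 had 25.3, 25.4, 23.9, 26 and 23.8 CPM with Ova and 41.6, 34.3, 46.4, 41.4 and 49.8 CPM with IC, without overlap (log2 fold change 0.77, edgeR adjusted p = 1.77e-07), and Manf (0.69), the chaperone Hspa5 (0.57) and Calr (0.55) followed. The sensor Ern1 (-0.47) and its target Xbp1 (-0.24) fell. Of 8 genes of the NADPH oxidase complex 4 rose and 1 fell. The proton channel Hvcn1 rose most (0.87, edgeR adjusted p = 3.31e-09), the membrane subunits Cyba (0.30) and Cybb (0.21) rose, and the organizer Ncf1 fell (-0.37).

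Maturation genes rose in part. Of 24 tested, 11 rose and 3 fell (median 0.24), against 5 and 4 with library size in place of TMM and 3 and 1 without the mouse as a block. Of 14 genes of MHC class II presentation 6 rose and none fell (median 0.21). By library size 6 rose and 1 fell, and without the mouse as a block none of the 14 was called. The checkpoint ligand Cd274, known as PD-L1, had 285, 251, 304, 243 and 299.7 CPM with Ova and 486, 455, 446, 331 and 416 CPM with IC, without overlap (log2 fold change 0.63, standard error 0.0882, edgeR adjusted p = 2.68e-05). Cd83 (0.42), Cd86 (0.22) and Icam1 (0.34) rose, Cd86 with a call that was lost without mouse A, B or C (0.13 without mouse B, edgeR adjusted p = 0.131). Cd40 (0.22, edgeR adjusted p = 0.229) and Cd80 (0.17, edgeR adjusted p = 0.247) did not pass, and Icosl fell (-0.40). Dock8, an exchange factor for a small GTPase needed for dendritic cell migration through tissue, fell in 5 of 5 mice, from 153, 202, 319, 307 and 274 CPM with Ova to 114, 115, 155, 141 and 181 CPM with IC (log2 fold change -0.81, edgeR adjusted p = 1e-05). Its level was lowest in mice A and B with Ova, and the groups overlapped. The class II genes H2-Eb1 (0.40), H2-Ab1 (0.36) and H2-Aa (0.35) rose while the class II transactivator Ciita did not pass (0.08, edgeR adjusted p = 0.52), and neither did the peptide exchange genes H2-DMa, H2-DMb1 and H2-DMb2.

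The interferon-stimulated genes that passed the test lay in both directions. Of 34 tested, 7 rose (20.6%) and 6 fell (17.6%), close to the 18.3% and 19.8% of all genes, with a median of -0.02, and with library size in place of TMM 6 rose and 12 fell. Those that rose were led by the IFIT genes and Rsad2, whose proteins block viral RNA and replication. Rsad2, on chromosome 12 from 26442746 to 26456452, had 4.15, 1.96, 1.88, 4.69 and 3.08 CPM with Ova and 10.7, 11.4, 18.8, 8.12 and 7.55 CPM with IC, without overlap (log2 fold change 1.79, standard error 0.273, edgeR adjusted p = 6.04e-05). Ifit3b, with a mean of 11.8 counts per library, had 0.113, 0, 0.283, 0.21 and 0.0513 CPM with Ova and 0.742, 1.32, 1.07, 0.916 and 0.568 CPM with IC and did not overlap (edgeR adjusted p = 7.78e-05). Ifit1 (1.54), Ifit2 (1.18), Ifit3 (1.10), Oasl1 (0.78) and Tor3a (0.51) also rose. Ifit3 and Ifit3b are near-identical, so their split is uncertain. Of the 6 that fell, 3 encode sensors of viral RNA. Of these Ddx58, known as RIG-I, had 34.8, 28.8, 29.1, 33 and 36.2 CPM with Ova and 28.7, 25.6, 22.9, 19.5 and 19.6 CPM with IC, the groups just not overlapping (log2 fold change -0.49, edgeR adjusted p = 0.000195), and Dhx58 (-0.46) and Ifih1 (-0.29) fell with it, beside Mx1 (-0.32), Sp100 (-0.34) and Herc6 (-0.25). Within mice A and B 7 genes of the list rose and none fell, and within mice C, D and E 5 rose and 9 fell, against 643 and 622 and 2360 and 2134 among all genes, a difference between sets that was not tested. With library size in place of TMM, 6 genes of the list rose and 12 fell.

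The interferon-stimulated response element, searched on both strands as a pair of GAAA blocks separated by any 2 bases, was in 14 of 24 promoters of the list (58.3%) and in 3.99% of all promoters. It stood in 4 of 6 of those that rose, 2 of 4 of those that fell and 8 of 14 of those not called. The stretches of 3 genes that rose are given with the matches in capitals.
Ifit3b, chr19:34607768-34607847, plus strand: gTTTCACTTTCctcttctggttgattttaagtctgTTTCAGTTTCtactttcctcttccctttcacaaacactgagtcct
Rsad2, chr12:26456528-26456607, minus strand: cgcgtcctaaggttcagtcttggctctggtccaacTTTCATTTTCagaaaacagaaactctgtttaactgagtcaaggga
Ifit1, chr19:34640769-34640848, plus strand: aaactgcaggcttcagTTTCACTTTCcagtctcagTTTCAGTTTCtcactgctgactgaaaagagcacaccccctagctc
Ifit1 and Ifit3b each held 2 matches in the stretch and Rsad2 held 1, all on the strand opposite to the gene.

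Of 15 genes of the BCL2 family 9 rose and 3 fell, against 3 and 4 with library size in place of TMM. The survival gene Bcl2l1, which encodes BCL-XL, had 63.6, 39.1, 55.5, 33.6 and 53 CPM with Ova and 89.2, 87.5, 112, 68.7 and 94.6 CPM with IC, without overlap (log2 fold change 0.90, standard error 0.0861, edgeR adjusted p = 3.54e-07). The death gene Bcl2l11, which encodes BIM, went from 46.9, 86.7, 67.3, 99.2 and 67.7 CPM with Ova to 36.8, 38.2, 38.6, 55.8 and 47.2 CPM with IC (log2 fold change -0.75, edgeR adjusted p = 5.71e-05). It fell in every mouse, with overlap between the groups. The death-promoting genes Bmf (-0.31) and Bad (-0.24) fell and Bid (0.38) and Bax (0.28) rose. Among inflammasome genes 5 of 14 fell, Dfna5, Nlrp1b (-0.72), Naip5 (-0.56), Gsdmd (-0.31) and Naip2 (-0.14), and only Casp4 rose (0.42). Nlrp3 did not pass (-0.20, edgeR adjusted p = 0.0507).

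Krüppel-like factors and alpha-arrestins fell. Of 11 Krüppel-like factors tested 6 fell (54.5%) and none rose, with a median of -0.28. Klf11, a transcriptional repressor on chromosome 12 from 24651274 to 24662789, had 11.8, 12.6, 10.6, 10.8 and 11 CPM with Ova and 5.57, 5.13, 5.74, 5.29 and 4.59 CPM with IC (log2 fold change -1.11, standard error 0.0841, edgeR adjusted p = 2.15e-08). Klf10, its close relative, had 118, 129, 85.9, 101 and 96.7 CPM with Ova and 52.3, 55, 49.7, 44.9 and 46.4 CPM with IC (log2 fold change -1.08, standard error 0.0748, edgeR adjusted p = 7.02e-09). Both were separated from Ova by a clear gap. Klf4 (-0.59), Klf2 (-0.56), Klf3 (-0.49) and Klf13 (-0.28) fell less. Of Txnip and the other 6 arrestin genes tested, 5 fell: besides Txnip these were Arrdc4 (-0.76), which like Txnip responds to glucose, Arrdc3 (-0.73), Arrdc1 (-0.53) and Arrdc2 (-0.34). The beta-arrestin genes Arrb1 (-0.02) and Arrb2 (0.02) did not pass.

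Mitotic genes fell as well. Of 25 genes of the G2 phase and mitosis 17 fell (68%) and none rose, with a median of -0.29. By library size 20 fell, and without the mouse as a block 9 fell, with none higher in either. Cenpf, a kinetochore protein, had 21.5, 28.5, 24.7, 24.5 and 23.6 CPM with Ova and 17.9, 19.2, 14.5, 15.3 and 13.4 CPM with IC, without overlap (log2 fold change -0.62, standard error 0.0924, edgeR adjusted p = 5.07e-05). Cenpe (-0.57), Racgap1 (-0.52), Kif20a (-0.50) and Aurkb (-0.49) fell, and Mki67 (-0.10), Ccnb1 (0.04) and Cdk1 (0.02) did not pass. Of 27 S phase genes 9 fell, E2f2 (-0.40) and Pole (-0.30) among them, and 3 rose, Pcna (0.27), Chaf1b (0.26) and Mcm3 (0.12). Cytosolic tRNA synthetases fell in 9 of 18 genes and rose in none, with Iars (-0.50), Mars (-0.48) and Cars (-0.43) lowest. Of 22 genes of the ATF4 response 4 fell, Trib3 (-0.58), Slc7a5 (-0.53), Nupr1 (-0.51) and Asns (-0.23, and -0.14 without mouse A, where it was not called), and 3 rose, Slc7a11, Cebpb and Slc3a2 (0.58). The ATF4 shares, 18.2% lower and 13.6% higher, did not exceed the 19.8% and 18.3% of all genes tested.

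Counts of the other lists follow, beside 18.3% higher and 19.8% lower among all genes tested. Of 35 genes of sterol and fatty acid synthesis 3 rose and 8 fell, with the elongase Elovl6 lowest (-0.78). Of 17 genes of cholesterol efflux and scavenging 3 rose and 1 fell (3 and 4 with library size in place of TMM), and the oxidized LDL receptor Olr1 (1.15, edgeR adjusted p = 1.38e-08) and Cd36 (0.70) were highest. Of 40 ribosome biogenesis factors 10 rose and 3 fell, of 21 integrin and adhesion genes 4 rose and 5 fell with Itgb3 highest (0.91), and of 16 purinergic genes 3 rose and 5 fell. With library size in place of TMM the ribosome biogenesis factors gave 8 and 5. Cytosolic chaperones gave 5 rises and 2 falls of 15, regulators of G1 1 and 1 of 12, interferon regulatory factors 1 and 2 of 8 with Irf3 lowest (-0.52), and lineage factors 5 and 2 of 21. Under that other scaling the chaperones gave 0 and 5, the G1 regulators 1 and 3 and the lineage factors 4 and 7. Over all 12465 genes it gave 1109 rises and 4110 falls. The median of the chaperones less that of all genes was 0.0754 by TMM and 0.0751 by library size.

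**Figure D5:**
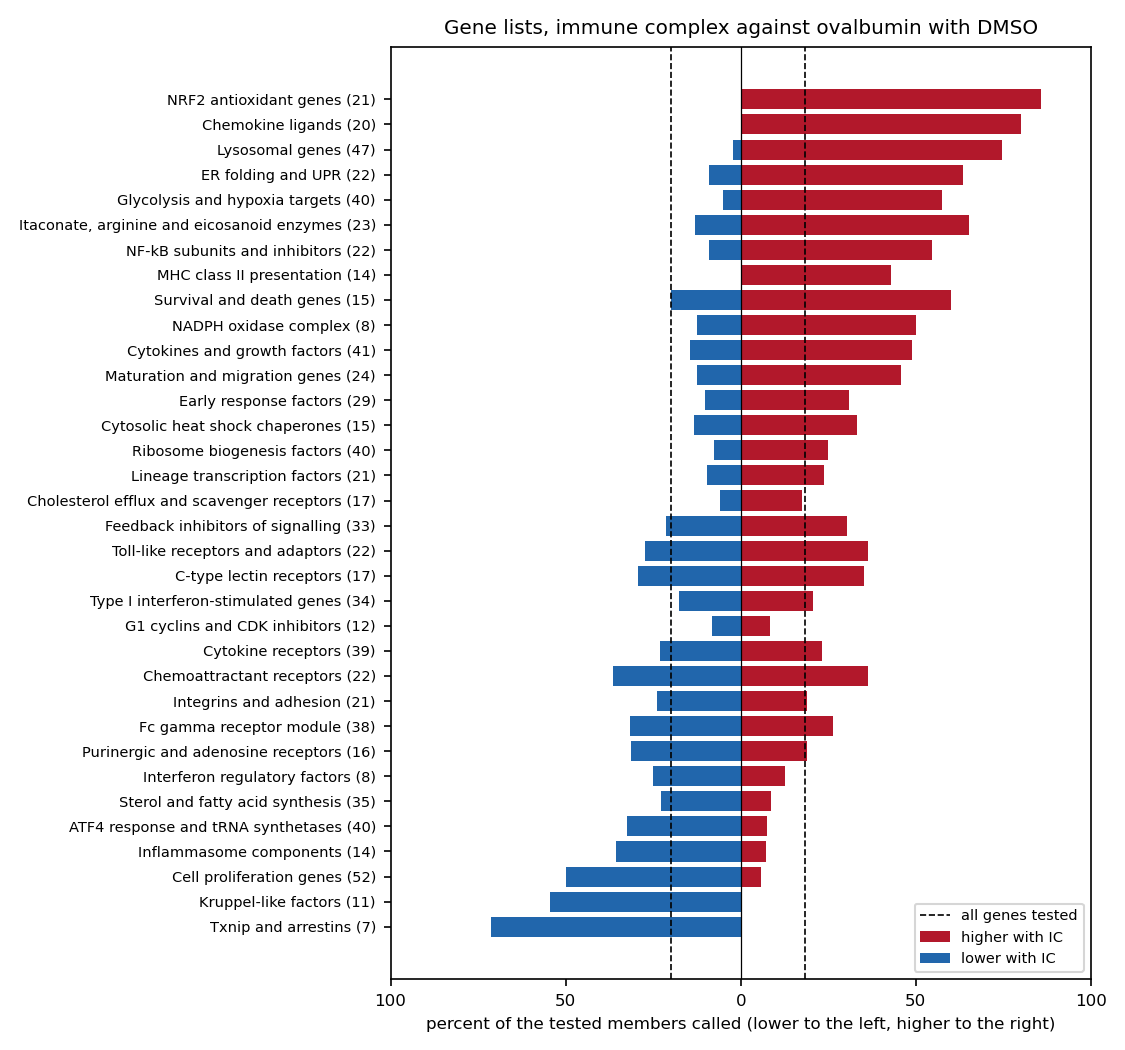
Percent of the tested members of each gene list (number tested in brackets) that were called lower (blue, to the left) or higher (red, to the right) with IC at an edgeR adjusted p under 0.05. Dashed lines mark the 19.8% lower and 18.3% higher of all genes tested. The lists run from the NRF2 genes, 85.7% higher and none lower, at the top to the arrestin genes, 71.4% lower and none higher, at the bottom.

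The same contrast with iBET called 3601 genes (28.9%), and the difference between the 2 responses, the interaction, passed for 102 of 12465 genes (0.818%). Of these, 85 were among the genes called with DMSO: 46 had a smaller response with iBET, 11 a larger one in the same direction and 28 an estimate of opposite sign with iBET, of which 10 were called with iBET and 18 were not. The 5 genes with the smallest interaction adjusted p were Arrdc4, Klf10, Ankrd63, Rps6ka2 and Lrp8. Arrdc4 fell by 0.76 on the log2 scale with DMSO and moved by -1.64 with iBET (interaction edgeR adjusted p = 3.36e-05), and Klf10 moved by -1.08 and -2.12 (interaction edgeR adjusted p = 8.73e-05). Rps6ka2 had log2 fold changes of 1.80 and 0.91 and Lrp8 of 1.74 and 0.48 (interaction edgeR adjusted p = 0.000207 and 0.000399). Ankrd63 had 0.64 with DMSO and 1.64 with iBET (interaction edgeR adjusted p = 0.000168). Without the mouse as a block the interaction passed for 5 genes, and without 1 mouse at a time for 14 to 61, with 15 without mouse C and 14 without mouse D. At an unadjusted p under 0.05 it passed for 1395 genes.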

How the data were processed

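Per the labels, total RNA of sorted BMDCs was turned into libraries with a SMARTer pico kit and sequenced, and the authors used CASAVA, FastQC, Trim Galore, HISAT2 and featureCounts with the build mm10. The strand setting of the counting and the versions are not given in the sources used here. The authors deposited a table of raw read counts per gene and a table of normalized values, which is the signal obtained by dividing the counts by size factors (checked, largest relative difference 9.9e-15). The count table was used for all results, and the normalized table for 1 alternative only.

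Libraries were grouped by their labels. Genes were filtered with filterByExpr, scaled by TMM and tested in edgeR 4.0.16 (R 4.3.3) by the quasi-likelihood test on 20 libraries with group and mouse as terms, with Benjamini-Hochberg adjustment and a threshold of 0.05. The labels give each library a mouse. Same-mouse libraries deviated together (correlation 0.429 to 0.672 over genes for each of the 5 mice), so the mouse was kept as a block. Replicates differed by more than sampling noise (chi-square over degrees of freedom at least 16.0). The members, the gene lists and the markers were chosen with earlier results of these data known. Genes named are the 15 that rose and the 15 that fell most (called, same direction in 5 of 5 mice, mean of at least 100 counts), the 5 with the smallest p in each direction, up to 4 called members per list, role and direction, the receptors, Tnf, Il1b, Il6 and Ccr7, the 5 with the smallest interaction p, and other list members named as examples. Alternatives used DESeq2 1.42.0, sva 3.50.0 (2 surrogate variables) and limma 3.58.1 on log2(value + 1). In simulated counts 200 of 12405 genes were changed, 50 at each size. The edgeR fit with the block recovered 50%, 76%, 98% and 100% of genes changed by 0.3, 0.6, 1 and 1.5 on the log2 scale. Of its calls 3.57% were false. Positions are from GENCODE vM21 (GRCm38) and promoters from RefSeq GRCm38.p6. Gene symbols are those of the table.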

Additional observations from a re-analysis of the deposited data

Results flagged for a closer look

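Of 82 groups of 5 values printed gene by gene, 4 held a value whose gap to its neighbour took up over 0.71 of the range, and chance gives about 1 in 20 such groups. Irg1 stood at 29.6 CPM in mouse A with Ova, with 15.0 CPM next. Slc7a11 stood at 694 CPM in mouse A with Ova, with 466 CPM next. Met stood at 33.7 CPM in mouse B with Ova, the lowest, with 48.8 CPM next. Ptgs2 stood at 44.8 CPM in mouse E with IC, with 10.2 CPM next.

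For 21 of the genes named in the text the response to IC differed between iBET and DMSO by the interaction term of edgeR, each given as the difference in log2 fold change, the change in value from DMSO to iBET and the adjusted p of edgeR. Among genes that rose with DMSO the difference was negative for Il1rn (-0.64, from 0.90 to 0.26, adjusted p = 0.0234), Lrp8 (-1.26, from 1.74 to 0.48, adjusted p = 0.000399), Manf (-0.36, from 0.69 to 0.33, adjusted p = 0.024), Met (-0.67, from 1.99 to 1.32, adjusted p = 0.0106), Rps6ka2 (-0.89, from 1.80 to 0.91, adjusted p = 0.000207), Slc3a2 (-0.43, from 0.58 to 0.15, adjusted p = 0.0451), Slc40a1 (-1.42, from 2.13 to 0.70, adjusted p = 0.00111), St6galnac4 (-0.51, from 1.24 to 0.73, adjusted p = 0.000478) and Txnrd1 (-0.50, from 1.37 to 0.87, adjusted p = 0.00721). It was positive for Ankrd63 (1.00, from 0.64 to 1.64, adjusted p = 0.000168). Among genes that fell with DMSO it was positive for Abhd15 (0.97, from -1.43 to -0.46, adjusted p = 0.000442), Camkk2 (0.34, from -0.88 to -0.55, adjusted p = 0.047), Ccr2 (1.22, from -1.17 to 0.05, adjusted p = 0.0144), Dok2 (0.53, from -0.92 to -0.40, adjusted p = 0.0106), Gpr155 (0.55, from -1.20 to -0.66, adjusted p = 0.0419), Map2k6 (1.39, from -2.02 to -0.63, adjusted p = 0.0124), Ncf1 (0.41, from -0.37 to 0.04, adjusted p = 0.0214) and Tnfsf14 (0.90, from -0.60 to 0.30, adjusted p = 0.0217). It was negative for Arrdc4 (-0.89, from -0.76 to -1.64, adjusted p = 3.36e-05) and Klf10 (-1.04, from -1.08 to -2.12, adjusted p = 8.73e-05). A gene that was not called with DMSO differed too, Ccnb1 (-0.38, from 0.04 to -0.34, adjusted p = 0.046).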

How the results depend on the processing

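The results above come from a fit with the mouse as a replicate block. Without the block 2531 genes were called in place of 4755, the interaction passed for 5 genes in place of 102, 205 of the 317 genes chosen by the naming rule kept their call and direction, and 243 list genes were called in place of 444. DESeq2 without the block called 2832 genes, and with the block it called 4552 and gave 186 interactions. Mice A and B alone gave 1265 genes and kept 171 of the chosen genes, and there Atp6ap1 had a log2 fold change of -0.0064. A threshold of 1e-05 left 427 genes and 88 chosen genes, and a log2 fold change of at least 1 left 214 and 58. The other settings gave 3598 genes from the 10 DMSO libraries alone, 4748 with DESeq2 size factors, 5219 with library size, 4398 without the filter, 4494 in mice C, D and E, 4106 with surrogate variables in place of the mouse and 4624 with limma on the normalized values. Leaving out 1 mouse at a time gave 3266 to 4594 genes and 14 to 61 interactions.

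Of 268 called genes named in the text, 145 were called in the same direction under each setting and 226 without each mouse in turn. Calls lost without a single mouse were those of Alox5, Casp4, Il7 and Klf13 without C, of Arrdc2, Cybb, Dhx58, Mitf and Sp100 without D, of Bcl3, Herc6 and Ptgs2 without E, and of Bmf and Nfkb1 without B. Arg1, Asns, Atp6ap1, Bad, Btk, C5ar1, Ccl7, Ccr7, Cd86, Chaf1b, Dusp2, Dusp6, Fcgrt, Fos, Fosl2, Il6, Inppl1, Mcm3, Mcoln1, Mx1, Naip2, Nfkb2, Nr4a3, Oasl1, Pag1, Rgl3, Tkt and Tlr4 lost theirs without either of at least 2 mice. Over all of these lost calls the edgeR adjusted p lay between 0.0507 and 0.187. The cause was not tested. On simulated counts with 200 of 12405 genes changed, edgeR with the block recovered 50% of genes changed by 0.3 on the log2 scale. Of those changed by 1 it recovered 98%. In the data far more genes were called, 4755 of 12465, so these shares cannot be carried over to them. Nothing in the labels says that mice A and B were handled apart, and with 5 mice their difference from the others cannot be told apart from one between mice.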

Other observations

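Genes of nutrient and organelle signalling that are in no list above also moved, and were chosen after their values were seen, without a test of their own as groups. The Rag GTPase gene Rragd, whose protein ties mTORC1 and TFEB to the lysosome, had 5.17, 5.34, 4.24, 4.17 and 4.05 CPM in mice A to E with Ova and 17.1, 15.1, 13.3, 14.6 and 12.3 CPM with IC (log2 fold change 1.66, standard error 0.103, edgeR adjusted p = 1.71e-09). The values did not overlap. Its relative Rragc (0.46), the folliculin gene Flcn (0.29) and the folliculin partners Fnip2 (1.28, edgeR adjusted p = 1.29e-09) and Fnip1 (0.68) rose as well, and the TFEB relative Mitf rose by 0.22 (edgeR adjusted p = 0.0108), though not without mouse D. Of the exchange factors for Ral GTPases, Ralgds and Rgl1 rose and Rgl2 (-0.38) and Rgl3 (-0.55) fell, Rgl3 with a call that was lost without mouse B, C or E.

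Among further genes of iron and heme handling, 5 that rose were also picked after their values were seen, and no list of such genes was counted. They were Alas1, the first enzyme of heme synthesis (1.10, edgeR adjusted p = 7.29e-10), the iron transporter Slc11a2 (0.84), the ferritin autophagy receptor Ncoa4 (0.47), the transferrin receptor Tfrc (0.46) and the heme transporter Slc48a1 (0.40). Among genes below the mean of 100 counts used above, Cyp26b1, which degrades retinoic acid (3.06, edgeR adjusted p = 1.64e-07), and Dio2, which activates thyroid hormone (2.36, edgeR adjusted p = 0.000124), rose, and Rhpn2 (-2.66, edgeR adjusted p = 0.00429) and the kinase gene Map2k6 (-2.02, edgeR adjusted p = 1.67e-07) fell.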
